A study of Mus musculus and Rattus norvegicus with 96 samples.

Results

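These 10 zonation genes mark the ends of the liver lobule, and this account follows them through 4 ways of preserving the same mouse livers. The pericentral members were Glul, Oat, Cyp2e1, Axin2, Rhbg and Slc1a2, and the periportal members were Cyp2f2, Hal, Sds and Gls2. The 6 pericentral and 4 periportal genes were taken by name and by no cutoff on a measured value, but with earlier results of these data known. All 10 passed the filter on low counts, which left 13370 of the 24543 genes in the mouse liver count table.

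Blood enters the liver lobule at the portal tracts and leaves at the central vein, and hepatocytes do different work along that path. Endothelial cells of the central vein supply Wnt ligands that keep beta-catenin signaling active in the hepatocytes around it, and these pericentral cells make glutamine from ammonia and carry much of the P450 metabolism. Periportal hepatocytes make urea and glucose and break down amino acids such as histidine, serine and glutamine.

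The livers came from 12 male B6C3F1 mice, 10 to 11 weeks old, given 600 ppm phenobarbital (PB, 6 mice) or plain water (Con, 6 mice) to drink for 7 days. Each liver was prepared 4 times: frozen (FR), frozen and then fixed in 70% ethanol and embedded in paraffin (FR>OH), frozen, later moved to 10% neutral buffered formalin and embedded (FR>FFPE), or placed fresh in that formalin and embedded (FFPE), with 18 to 24 h of formalin in both cases. The 8 groups therefore held 6 libraries each, 48 in all, and every mouse contributed to all 4 preparations. Frozen tissue was divided into separate portions, and RNA came from homogenized tissue in FR but from paraffin sections in the other 3, so that preservative, embedding and extraction cannot be told apart in a comparison with FR.

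Levels are given as CPM, the usual depth-scaled unit, here the estimated count of a gene relative to the total of its library column. The column totals ran from 4952797 in an FFPE library to 13702672 in an FR library. The PB label was checked on Cyp2b10, a P450 gene known to be induced by PB, which had at least 1078 CPM in every PB library and at most 2.45 CPM in every Con library. Hepatocyte markers (7 of 8 in the table) were above 0 in all 8 groups, and their summed level was highest in FR Con (91491 to 122573 CPM) and lowest in FFPE PB (47474 to 58632 CPM). In bulk liver, fewer cells of a zone and less RNA per cell cannot be told apart. A member passed the test at an adjusted p under 0.05 in edgeR's quasi-likelihood test, with Benjamini-Hochberg adjustment over all 13370 genes, and it was called when it also differed at least 2-fold.

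The members differed widely in level. In FR Con, the level per kilobase of exon was highest for Cyp2e1, an ethanol-metabolizing P450 at chr7:140763832-140774978, with 1608 ± 314 CPM per kb (SD, n = 6). Cyp2f2, a P450 of the periportal zone at chr7:27119955-27133661, followed with 375 ± 37.0, and Glul, the glutamine synthetase at chr1:153899929-153909724, with 274 ± 15.0. The ranges of these 3 genes over the 6 livers did not overlap. Oat, the mitochondrial ornithine aminotransferase at chr7:132557475-132576399, had 166 ± 48.9 CPM per kb and lay wholly below Glul.

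The glutaminase gene Gls2 (chr10:128194635-128210005) had 54.8 ± 8.57 CPM per kb and the histidine ammonia-lyase gene Hal (chr10:93488768-93516762) had 45.1 ± 5.68. Their ranges overlapped, so these neighbors were not separated. Sds, the serine dehydratase at chr5:120476547-120483906, had 25.3 ± 6.09, wholly below Hal. The scarcest per kilobase were Slc1a2, Rhbg and Axin2. Slc1a2, a glutamate transporter at chr2:102658683-102790785, had 10.0 ± 1.54. Rhbg, an ammonium transporter at chr3:88242874-88254685, had 5.04 ± 0.926. Axin2, a feedback inhibitor of Wnt signaling at chr11:108920349-108950782, had 1.46 ± 0.421. Exon length was the union of all GENCODE exons of a gene, 13.1 kb for Slc1a2 and 1.69 kb for Sds, and the order depends on it. In plain CPM the FR Con means were 132 for Slc1a2, 42.9 for Sds, 250 for Hal and 190 for Gls2. Gene positions are on GRCm38. Axin2 and Rhbg rested on few reads, at least 39 and at least 14 counts per library, and their values are the least precise of the 10.

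The 4 promoters are shown because Glul, Oat, Cyp2e1 and Slc1a2 are the members whose PB difference in FR>OH departed from that in FR (described further on). Each runs from 250 bases before to 50 bases after the RefSeq start on GRCm38.p6, 5′ to 3′ on the gene's own strand, and capitals mark CTTTGA or its reverse complement TCAAAG, the core of the site that the Wnt-responsive TCF factors bind. The intervals are chr1:153899679-153899978 (plus strand), chr7:132576349-132576648 (minus), chr7:140763569-140763868 (plus) and chr2:102706188-102706487 (plus). The Slc1a2 interval belongs to a start site inside the gene's full extent.
Glul: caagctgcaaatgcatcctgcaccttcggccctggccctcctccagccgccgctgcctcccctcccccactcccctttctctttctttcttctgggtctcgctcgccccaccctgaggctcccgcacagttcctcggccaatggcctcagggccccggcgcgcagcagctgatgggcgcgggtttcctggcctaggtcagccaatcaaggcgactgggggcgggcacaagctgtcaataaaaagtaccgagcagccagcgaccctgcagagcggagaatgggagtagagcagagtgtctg
Oat: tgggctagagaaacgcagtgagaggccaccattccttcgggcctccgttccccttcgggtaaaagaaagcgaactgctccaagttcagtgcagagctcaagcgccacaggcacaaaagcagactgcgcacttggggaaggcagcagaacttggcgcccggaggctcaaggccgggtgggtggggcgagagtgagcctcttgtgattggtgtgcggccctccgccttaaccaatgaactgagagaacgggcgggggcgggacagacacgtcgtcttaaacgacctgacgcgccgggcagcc
Cyp2e1: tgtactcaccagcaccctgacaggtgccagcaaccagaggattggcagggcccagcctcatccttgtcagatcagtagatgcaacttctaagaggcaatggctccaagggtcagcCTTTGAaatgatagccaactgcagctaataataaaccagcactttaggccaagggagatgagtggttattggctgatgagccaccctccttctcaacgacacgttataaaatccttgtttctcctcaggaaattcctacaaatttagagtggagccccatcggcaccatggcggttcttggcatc
Slc1a2: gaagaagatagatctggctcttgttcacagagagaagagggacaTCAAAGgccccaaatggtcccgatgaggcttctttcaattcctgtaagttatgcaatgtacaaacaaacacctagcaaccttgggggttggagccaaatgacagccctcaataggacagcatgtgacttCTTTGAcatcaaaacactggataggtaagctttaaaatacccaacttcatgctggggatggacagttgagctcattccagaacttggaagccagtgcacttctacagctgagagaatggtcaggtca
The motif appeared in Cyp2e1 and Slc1a2 but not in Glul or Oat. Of the 7 members with a promoter in the RefSeq set, 3 held it (Hal was the third), against 5257 of 32851 promoters (16%). These letters alone mark neither a bound site nor a regulated gene.

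Does PB change the zonation genes, and does the answer depend on how the liver was kept? In frozen liver, PB livers had less Glul and less Slc1a2 than Con livers, and the same held in both formalin preparations, while in ethanol-fixed tissue neither gene passed the test and Cyp2e1 and Rhbg were higher instead. No member was called at 2-fold in any preparation, against 2%, 1.87%, 2.42% and 1.92% of all genes called in FR, FR>FFPE, FR>OH and FFPE. At an adjusted p under 0.05 alone, 2 members passed in FR, 2 in FR>FFPE, 3 in FR>OH and 3 in FFPE, against 8.44%, 7.21%, 12.2% and 6.63% of all genes. The 4 comparisons use the same 12 mice, so they are not independent of each other.

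Glul in FR had 859.9, 898 and 976 CPM in Con (lowest, median and highest of 6) and 537, 653 and 771 CPM in PB. Every PB liver lay below every Con liver, and the log2 difference was -0.47 (SE 0.12, adjusted p = 0.0083). Library titles carry an L number, called the lane label here, although nothing in the labels says what it stands for. All 6 Con libraries carried lane label 2, as did only 2 PB libraries, which had 771 and 710 CPM. Within that lane label the log2 difference was -0.30 (adjusted p = 0.148). Glul thus no longer passed with 2 PB libraries left, although both still lay below all 6 Con libraries.

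In FR>FFPE, Glul had 724, 749.7 and 1241 CPM in Con and 449.9, 649.9 and 669 CPM in PB, again with no overlap. The log2 difference was -0.52 (SE 0.12, adjusted p = 0.0033). It was of the same size but did not pass with only the 12 FR>FFPE libraries in the fit (adjusted p = 0.0575). Lane labels here were 3 for every Con and 4 for every PB library, so whatever the label stands for cannot be told apart from treatment in FR>FFPE.

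In FFPE, Glul had 749.6, 822 and 899 CPM in Con and 517, 588 and 674 CPM in PB, and the groups did not overlap. The log2 difference was -0.47 (SE 0.12, adjusted p = 0.0114), and -0.43 within lane label 1 (6 Con and 4 PB, adjusted p = 0.0484). In FR>OH the picture was another: 551, 624 and 717 CPM in Con and 539.6, 677 and 865 CPM in PB. The groups overlapped fully there, and the log2 difference was 0.13 (SE 0.12, adjusted p = 0.53).

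Slc1a2 followed Glul. Its FR levels were 107, 133 and 155 CPM in Con and 54.5, 81.2 and 103 CPM in PB, with no overlap and a log2 difference of -0.72 (SE 0.16, adjusted p = 0.0017). The difference was -0.78 within lane label 2 (adjusted p = 0.024). In FFPE the levels were 146, 190.0 and 203 CPM in Con and 76.1, 103 and 111 CPM in PB.

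No FFPE library of a PB liver reached the lowest Con library, and the log2 difference of Slc1a2 was -0.88 (SE 0.16, adjusted p = 0.00018). In FR>FFPE the levels were 141, 162 and 189 CPM in Con and 63.4, 96.9 and 140.0 CPM in PB, where the highest PB liver came within 1 CPM of the lowest Con liver (log2 difference -0.77, SE 0.16, adjusted p = 0.00082). In FR>OH, Con had 77.7, 102 and 177 CPM and PB had 72.7, 109 and 116 CPM, so the groups overlapped and the log2 difference was -0.16 (SE 0.16, adjusted p = 0.58).

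Glul and Slc1a2 were thus the members whose groups did not overlap in FR, FR>FFPE and FFPE, against 5.42%, 3.65% and 2.84% of all genes. In FR>OH only Cyp2e1 had groups that did not overlap (5.42% of all genes).

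**Figure D1:**
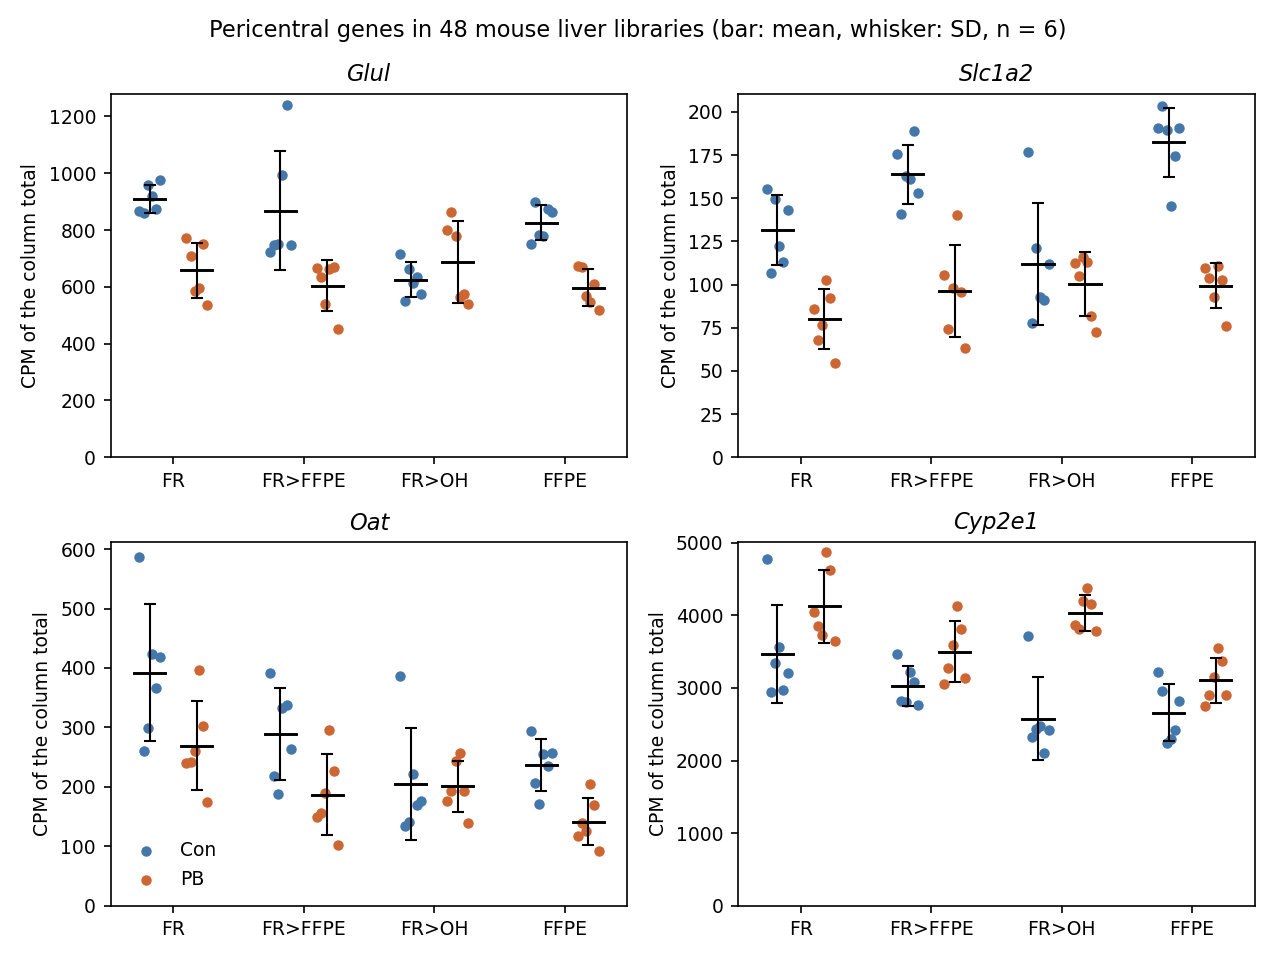
Level of 4 pericentral genes (y axis, CPM of the column total) in each of 48 libraries, by preparation (x axis) and treatment (color); bars are means and whiskers SD of 6 livers. For Glul and Slc1a2 the PB points lie below all Con points in FR, FR>FFPE and FFPE but not in FR>OH, and for Cyp2e1 the FR>OH PB points (3781 to 4374 CPM) lie above all FR>OH Con points (2108 to 3718 CPM).

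Oat had the same direction as Glul in FR, FR>FFPE and FFPE but more spread between livers. In FFPE it had 171, 245 and 294 CPM in Con and 92.8, 132 and 204 CPM in PB. The groups overlapped, and the log2 difference of -0.74 (SE 0.24) passed the test (adjusted p = 0.046). It was the weakest of the 3 passes in FFPE, where only 2 members passed with no filter or with total reads. In FR (-0.54, adjusted p = 0.15) and FR>FFPE (-0.63, adjusted p = 0.099) Oat did not pass, and in FR>OH its difference was -0.031 (adjusted p = 0.96).

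Cyp2e1 and Rhbg were the members that rose, both in FR>OH. Cyp2e1 had there 2108, 2427 and 3718 CPM in Con and 3781, 4013 and 4374 CPM in PB. All 6 PB livers lay above all 6 Con livers, with a log2 difference of 0.64 (SE 0.12, adjusted p = 0.00011), and of 0.79 within lane label 5 (3 Con and 6 PB, adjusted p = 0.0062). In the other preparations its differences were 0.25 in FR, 0.21 in FR>FFPE and 0.22 in FFPE, and none passed (adjusted p = 0.20, 0.35 and 0.30).

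Rhbg passed in no other preparation, and in FR>OH it had 5.54, 7.23 and 7.98 CPM in Con and 7.89, 9.67 and 15.2 CPM in PB. The 2 groups overlapped slightly, and the log2 difference was 0.64 (SE 0.20, adjusted p = 0.029). Within lane label 5 it was 0.59 (adjusted p = 0.28). Axin2, the Wnt feedback gene, did not pass in any preparation: its differences were -0.48 in FR, -0.26 in FR>FFPE, -0.064 in FR>OH and -0.53 in FFPE (adjusted p = 0.26, 0.62, 0.90 and 0.20).

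Among the periportal members, the only difference with PB that passed in any of the 4 preparations was that of Gls2 in FR>OH, with 220.4, 242 and 280.2 CPM in Con and 133, 170.5 and 242 CPM in PB. The groups overlapped, the log2 difference was -0.46 (SE 0.15, adjusted p = 0.034), and it did not pass with only the 12 FR>OH libraries (adjusted p = 0.066) or within lane label 5 (-0.48, adjusted p = 0.27). Cyp2f2 differed by -0.16 to 0.01, Hal by -0.11 to 0.14 and Sds by -0.44 to -0.11 on the log2 scale over the 4 preparations. The 95% intervals in FR ran from -0.40 to 0.20 for Cyp2f2 and from -0.29 to 0.16 for Hal.

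**Figure D2:**
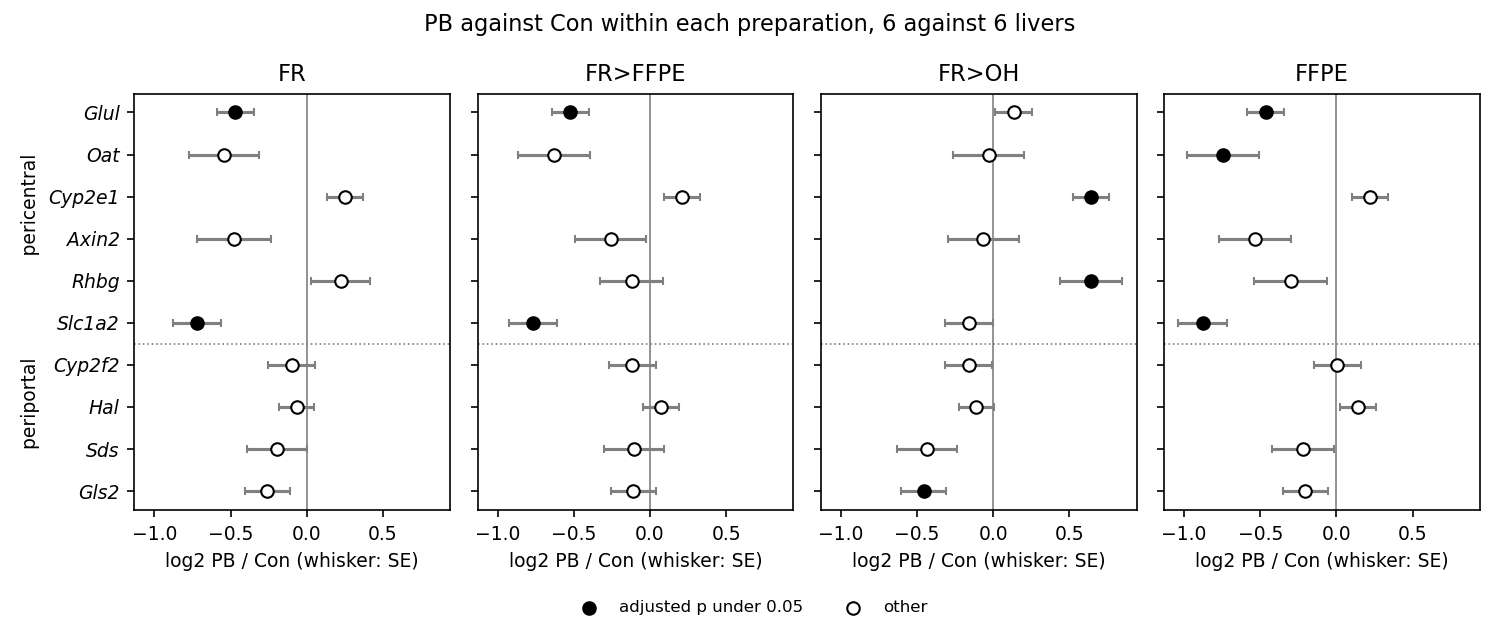
Log2 ratio of PB to Con (x axis, whiskers SE) for the 10 members (y axis) in each preparation, from 6 against 6 livers; filled points have an adjusted p under 0.05. Glul and Slc1a2 are filled and left of 0 in FR, FR>FFPE and FFPE, as is Oat in FFPE, and in FR>OH the filled points are Cyp2e1 and Rhbg to the right and Gls2 to the left.

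Other genes of the same zones are given for comparison. Of 18 further pericentral genes, 4 were higher and 3 lower with PB in FR, 4 and 2 in FFPE, 4 and 3 in FR>FFPE, and 5 and 1 in FR>OH (adjusted p under 0.05). The median log2 difference of these genes in the same order was -0.27, -0.18, -0.21 and -0.029, beside 0.0035, 0.0077, 0.062 and 0.020 over all genes. The shares of all genes that rose and fell with PB were 5.85% and 2.6% in FR, 4.64% and 1.98% in FFPE, 6.22% and 0.987% in FR>FFPE, and 8.41% and 3.78% in FR>OH. The pericentral genes that rose most in FR were Cyp2a5 (log2 3.36), Cyp1a2 (1.61) and the aryl hydrocarbon receptor gene Ahr (1.14), 2 of them P450 genes of drug metabolism. Cyp2a5 is nearly identical to Cyp2a4, and the counting may have split their reads. Those that fell most were Notum (-1.001), which encodes an enzyme that inactivates Wnt ligands, the R-spondin receptor gene Lgr5 (-0.95) and the vasopressin receptor gene Avpr1a (-0.30).

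Of 20 further periportal genes, 0 rose and 4 fell in FR, 0 and 3 in FFPE, 0 and 3 in FR>FFPE, and 1 and 3 in FR>OH. The largest falls in FR were those of Pck1, the gluconeogenic carboxykinase (-1.36), Tat, the tyrosine aminotransferase (-0.55), and Pigr, the immunoglobulin receptor (-0.36). Of 36 Wnt and beta-catenin pathway genes tested, 0 rose and 5 fell in FR, 1 and 4 in FFPE, 2 and 3 in FR>FFPE, and 1 and 2 in FR>OH. Beside Notum and Lgr5, the FR list included the Wnt inhibitor Wif1 (-0.90), and Lrp5, a Wnt coreceptor, fell in FR>FFPE (-0.42), FR>OH (-0.50) and FFPE (-0.40).

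Glul and Gls2 belong to the ammonia and amino acid pathway, of which 26 other genes were tested. In FR 1 rose and 6 fell, in FFPE 1 and 6, in FR>FFPE 1 and 3, and in FR>OH 1 and 5. Gpt, the alanine aminotransferase gene, was the one that rose in each (log2 0.40, 0.35, 0.32 and 0.41). Tat fell in each (-0.55, -0.60, -0.58 and -0.53). The glutamine transporter gene Slc38a3 fell in FR>FFPE (-0.44) and FR>OH (-0.47), and the amino acid transporter gene Slc38a4 in FR (-0.53), FR>OH (-0.40) and FFPE (-0.56).

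Whether PB acted differently in a preparation than in FR was tested directly, as the PB difference in that preparation minus the PB difference in FR. For FR>OH this was positive for all 6 pericentral members and negative for all 4 periportal members, with 55.9% of all genes positive. The sign for Hal depended on the scaling (given further on). With the 8 group means alone, no gene of 13370 passed (0%), and 305 genes (2.28%) had an unadjusted p under 0.05. Among these were Glul (log2 0.60, unadjusted p = 0.0010), Slc1a2 (0.56, unadjusted p = 0.016) and Cyp2e1 (0.39, unadjusted p = 0.022).

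With the mouse as a block, which compares each liver with itself, 4 members passed, all pericentral and all positive, against 0.277% of all genes (37 genes, with 34, or 0.254%, positive). These were Glul (log2 0.60, SE 0.12, adjusted p = 0.0072), Oat (0.57, SE 0.12, adjusted p = 0.0083), Cyp2e1 (0.40, SE 0.08, adjusted p = 0.0092) and Slc1a2 (0.59, SE 0.13, adjusted p = 0.027). Axin2 (0.47, adjusted p = 0.38), Rhbg (0.44, adjusted p = 0.52) and the 4 periportal members (-0.25 to -0.06, adjusted p from 0.26 to 0.92) did not pass. Of the 18 further pericentral genes 3 passed, all positive: Cyp2a5 (0.55), Cyp1a2 (0.47) and Rgn (0.47), the last a calcium-binding protein gene. The rest of the 37 genes were on none of the lists used here. They included the PB-responsive P450 genes Cyp3a11 (0.49) and Cyp2c50 (0.48), while Cyp2b10 was negative (-1.74). Cyp2b10 had at most 2.45 CPM in Con, so its value rests on few Con reads. Of the 20 further periportal genes 0 passed by edgeR's quasi-likelihood test, and 6 had an unadjusted p under 0.05. Of these 20, 10 were positive (median log2 0.0051), so the negative sign of the 4 periportal members was not shared by that list. Of the 18 further pericentral genes 16 were positive (median 0.29).

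This result leaned on single mice. Leaving out each mouse in turn gave 0 to 4 members past the threshold, with 0 when PB mouse 20B was left out (Glul adjusted p = 0.0538) and 2 when Con mouse 90C was left out. The log2 values stayed between 0.52 and 0.68 for Glul, 0.50 and 0.67 for Oat, 0.37 and 0.43 for Cyp2e1, and 0.53 and 0.70 for Slc1a2. The same test for FR>FFPE and for FFPE found 0 members under either fit (edgeR's quasi-likelihood test), with 0% of all genes passing without the block and 0% and 0.00748% with it, beside 288 and 463 genes (2.15% and 3.46%) at an unadjusted p under 0.05 without the block.

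The portions of each liver show where the difference lay. Glul fell from FR to FR>OH in 6 of 6 Con mice, from 859.9 to 976 CPM down to 551 to 717 CPM with no overlap (log2 -0.54, SE 0.12, adjusted p = 0.00032). In the PB mice the 2 portions of 1 liver went either way, from 771 to 801 CPM in mouse 18B, 586 to 779 in 20B and 751 to 575 in 75C, with 4 of 6 higher in FR>OH and a log2 difference of 0.062 (adjusted p = 0.73). The Con FR>OH libraries with lane label 4 (551 to 717 CPM) and lane label 5 (575 to 634 CPM) covered like ranges. FR and FR>OH shared no lane label, so label and preparation cannot be told apart by comparing these libraries.

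Oat was lower in FR>OH in 6 of 6 Con mice (log2 -0.94, SE 0.23, adjusted p = 0.0011) and in 6 of 6 PB mice (-0.43, SE 0.23, adjusted p = 0.15). Cyp2e1 was lower in 6 of 6 Con mice (-0.43, adjusted p = 0.0029) and in 4 of 6 PB mice (-0.034, adjusted p = 0.85). Slc1a2 was lower in 5 of 6 Con mice (-0.24, adjusted p = 0.24) and higher in 5 of 6 PB mice (0.33, adjusted p = 0.10). In Con, 7 members passed between FR>OH and FR, against 41% of all genes, and in PB only Axin2 did (log2 1.21, adjusted p = 7.7e-05), against 38.7%. With the mouse as a block 8 members passed in Con (54.5% of all genes) and 4 in PB (52.8%). Slc1a2 was then lower in FR>OH in Con (-0.26, adjusted p = 0.017) and higher in PB (0.34, adjusted p = 0.0025), and Oat was lower in both (-0.97 and -0.40).

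**Figure D3:**
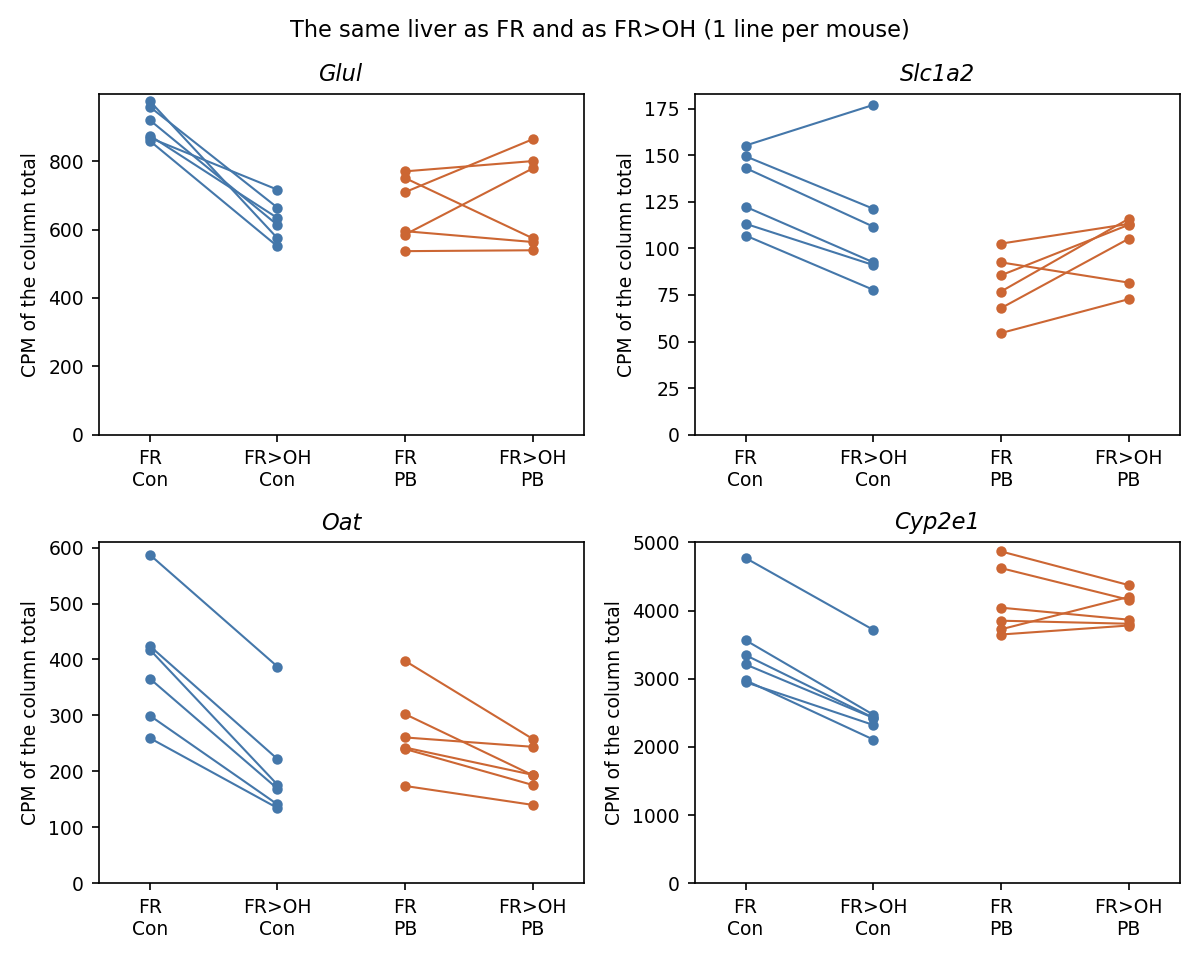
Level of 4 pericentral genes (y axis, CPM of the column total) in the frozen (FR) and the frozen, then ethanol-fixed (FR>OH) portion of the same liver, 1 line per mouse, with 6 Con mice on the left and 6 PB mice on the right of each panel. Glul falls in all 6 Con mice and goes either way in the PB mice, and Oat falls in all 12 mice.

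Other cell types also differed in FR>OH. The 6 endothelial markers, all present in the table, were all lower in FR>OH than in FR (adjusted p under 0.05, median log2 -0.67), and their summed level was 286 to 370.1 CPM in FR Con, 300.5 to 379 in FR PB, 169 to 272 in FR>OH Con and 176 to 312 in FR>OH PB, with no marker at 0 in any group. It was 223 to 361 and 255 to 372 CPM in FR>FFPE Con and PB, and 323 to 365 and 299 to 341 CPM in FFPE Con and PB. Their PB difference in FR>OH against that in FR had a median of 0.22 with the mouse as a block (5 of 6 positive, 0 passed by edgeR's quasi-likelihood test, 2 at an unadjusted p under 0.05). Of 6 Kupffer cell markers 5 were lower in FR>OH than in FR (median -0.59). Both counts of lower markers stand beside 13.3% of all genes lower in FR>OH than in FR. The part of these cell types, and of the portion of liver sampled, in the zonation results was not tested.

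How did the preparations themselves differ in the zonation genes? Axin2 was called higher than in FR in all 3 embedded preparations and Rhbg was called lower in FFPE, and no other member reached 2-fold. FFPE thus called 2 members (14.9% of all genes), FR>FFPE 1 (6.51%) and FR>OH 1 (4.08%). At an adjusted p under 0.05 alone 8, 7 and 6 members passed, against 70.3%, 65.4% and 54.9% of all genes, so passing that test was the rule in these comparisons. Oat and Cyp2e1 passed as lower and Axin2 and Gls2 as higher in all 3 comparisons, which share the FR libraries. Each comparison averages the Con and the PB difference. For FR>OH these 2 differed in Glul, Oat, Cyp2e1 and Slc1a2 with the mouse as a block (given above), so the average describes neither treatment alone.

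The median of all genes depended on the scaling. With column totals the median log2 difference was 0.32 in FFPE, 0.34 in FR>FFPE and 0.18 for ethanol (FR>OH), with TMM it was 0.041, 0.030 and -0.0038, and with total reads it was -0.63, -0.042 and -0.15. Differences relative to the column-total median are therefore given with the members' values.

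Markers of whole cell types moved in the formalin preparations too. In FFPE against FR 6 of 7 hepatocyte markers were lower and 1 higher (median -1.15), 5 of 6 Kupffer cell markers were lower (-0.70) and 4 of 5 red blood cell markers were lower (-1.35). In FR>FFPE 5 of 7, 3 of 6 and 3 of 5 were lower (medians -0.60, -0.36 and -0.61). Summed red blood cell markers ran from 318 to 989.9 CPM over the FR libraries and from 189.5 to 403 CPM over the FFPE libraries, Kupffer cell markers from 216 to 529.9 and from 141 to 380.4 CPM, and no marker of the 3 lists was at 0 throughout a group. The remaining lists were mixed in FFPE against FR. Of 5 bile duct markers 2 were higher and 1 lower (median 0.67), and of 3 smooth muscle markers 1 and 0 (0.53). Of 6 stellate cell markers 2 were higher and 2 lower (0.10), and of 6 endothelial markers 1 and 1 (-0.14). The part of these cell types in the members' differences was not tested.

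Axin2 had 5.29, 7.28 and 11.2 CPM in FR Con and 3.19, 5.56 and 9.66 CPM in FR PB. In FFPE it had 14.6, 22.5 and 26.8 CPM in Con and 10.4, 14.5 and 19.7 CPM in PB, above FR in 12 of 12 mice. The groups did not overlap within Con or within PB, and the log2 difference was 1.42 (SE 0.17, adjusted p = 6.2e-10), or 1.10 relative to the median gene.

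The same gene was higher in 12 of 12 mice in FR>FFPE (log2 1.14, SE 0.17, adjusted p = 1.1e-07, 0.80 relative to the median gene). In FR>OH it was higher in 11 of 12 mice (1.00, SE 0.17, adjusted p = 2.2e-06, 0.82 relative), the exception being Con mouse 90C with 5.29 CPM in FR and 5.26 CPM in FR>OH. The FR>OH value, 1.001 to more digits, only just passed 2-fold. Under TMM scaling Axin2 was no longer called in FR>FFPE (0.83) or FR>OH (0.81) but was still called in FFPE (1.14). With total reads or with limma on the deposited log2 CPM it was called in none of the 3, the FFPE value being 0.47 and 0.50, still higher at an adjusted p of 0.0076 and 0.0072.

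Rhbg had 7.04, 9.79 and 12.4 CPM in FR Con and 5.81, 11.97 and 14.9 CPM in FR PB, against 2.68, 5.85 and 6.84 CPM in FFPE Con and 3.17, 4.30 and 6.26 CPM in FFPE PB. It was lower in FFPE in 12 of 12 mice, with a log2 difference of -1.08 (SE 0.15, adjusted p = 2.9e-08, -1.41 relative to the median gene). In FR>FFPE it was -0.50 (SE 0.14, adjusted p = 0.0017, -0.84 relative) and in FR>OH -0.29 (adjusted p = 0.077, -0.47 relative). No member was called between the 2 formalin preparations (0.531% of all genes), and Rhbg was the sole member that passed there by this fit, FFPE being lower by 0.58 on the log2 scale (adjusted p = 0.0042, against 29.2% of all genes passing). With the mouse as a block 7 members passed there (43.6% of all genes), Rhbg again with the largest difference and the others between -0.32 and 0.30.

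Oat was lower in 12 of 12 mice in every comparison with FR, by a log2 difference of -0.49 in FR>FFPE (adjusted p = 0.0090), -0.68 in FR>OH (adjusted p = 0.00050) and -0.83 in FFPE (adjusted p = 2.2e-05), or -0.82, -0.86 and -1.15 relative to the median gene. The same direction in 12 of 12 mice was found for 43.9%, 37.8% and 46.1% of all genes. Cyp2e1 was lower by 0.22, 0.23 and 0.40 on the log2 scale in the same order (adjusted p = 0.020, 0.017 and 4.6e-05), with -0.56, -0.41 and -0.72 relative to the median gene. Over Con and PB together, Glul was lower in FR>OH alone (-0.24, adjusted p = 0.017), its differences of -0.10 in FR>FFPE and -0.14 in FFPE not passing (adjusted p = 0.33 and 0.14). In FR>OH Cyp2e1 was higher than in FR in 0 of 6 Con and 2 of 6 PB mice. Glul was higher there in 0 of 6 Con and 4 of 6 PB mice. Relative to the median gene it was -0.43 in FR>FFPE, -0.46 in FFPE and -0.42 in FR>OH. With TMM scaling the FR>FFPE and FFPE differences of Glul passed (-0.41, adjusted p = 4.7e-05, and -0.42, adjusted p = 1.7e-05). With the mouse as a block the FFPE difference of Glul also passed (-0.14, adjusted p = 0.031), as did Sds in FFPE (0.17, adjusted p = 0.035) and FR>FFPE (0.24, adjusted p = 0.0030) and Rhbg in FR>OH (-0.28, adjusted p = 0.013).

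**Figure D4:**
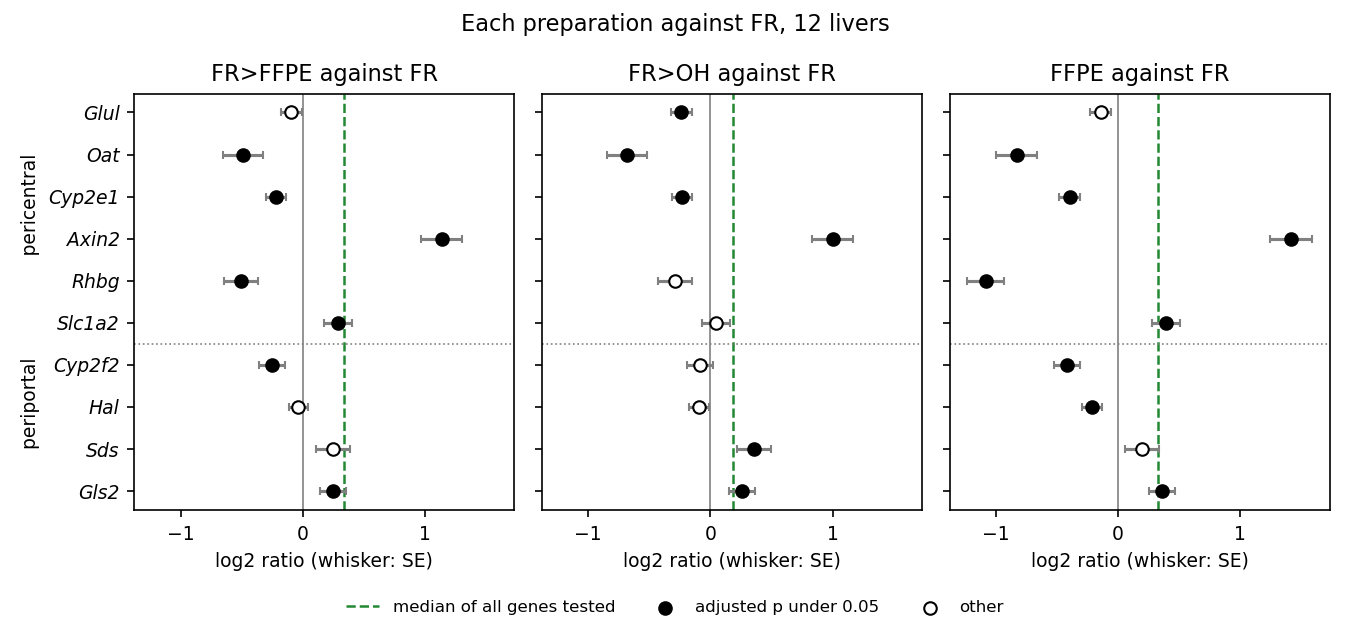
Log2 ratio of each preparation to FR (x axis, whiskers SE) for the 10 members (y axis), from 12 livers; filled points have an adjusted p under 0.05 and the dashed line is the median of all 13370 genes. Axin2 lies to the right of the dashed line in all 3 panels, and Oat, Rhbg and Cyp2e1 lie to its left.

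Among the periportal members Gls2 lay near the median gene and Cyp2f2 lay below it. Gls2 was higher than in FR in all 3 preparations (log2 0.25, 0.26 and 0.36 in FR>FFPE, FR>OH and FFPE, adjusted p = 0.035, 0.033 and 0.0024), which relative to the median gene was -0.091, 0.077 and 0.034, and its sign turned under scaling by total reads in all 3. Slc1a2, of the pericentral side, was higher in FR>FFPE (0.29, adjusted p = 0.021) and FFPE (0.39, adjusted p = 0.0021), which relative to the median gene was -0.048 and 0.068, and its sign turned in the same way. Cyp2f2 was lower in FFPE (-0.42, adjusted p = 0.00067, -0.74 relative) and FR>FFPE (-0.25, adjusted p = 0.038, -0.59 relative), and Hal in FFPE (-0.21, adjusted p = 0.019, -0.54 relative). Sds was higher in FR>OH (0.36, adjusted p = 0.027, 0.17 relative), and no longer passed with TMM (0.17, adjusted p = 0.34).

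**Figure D5:**
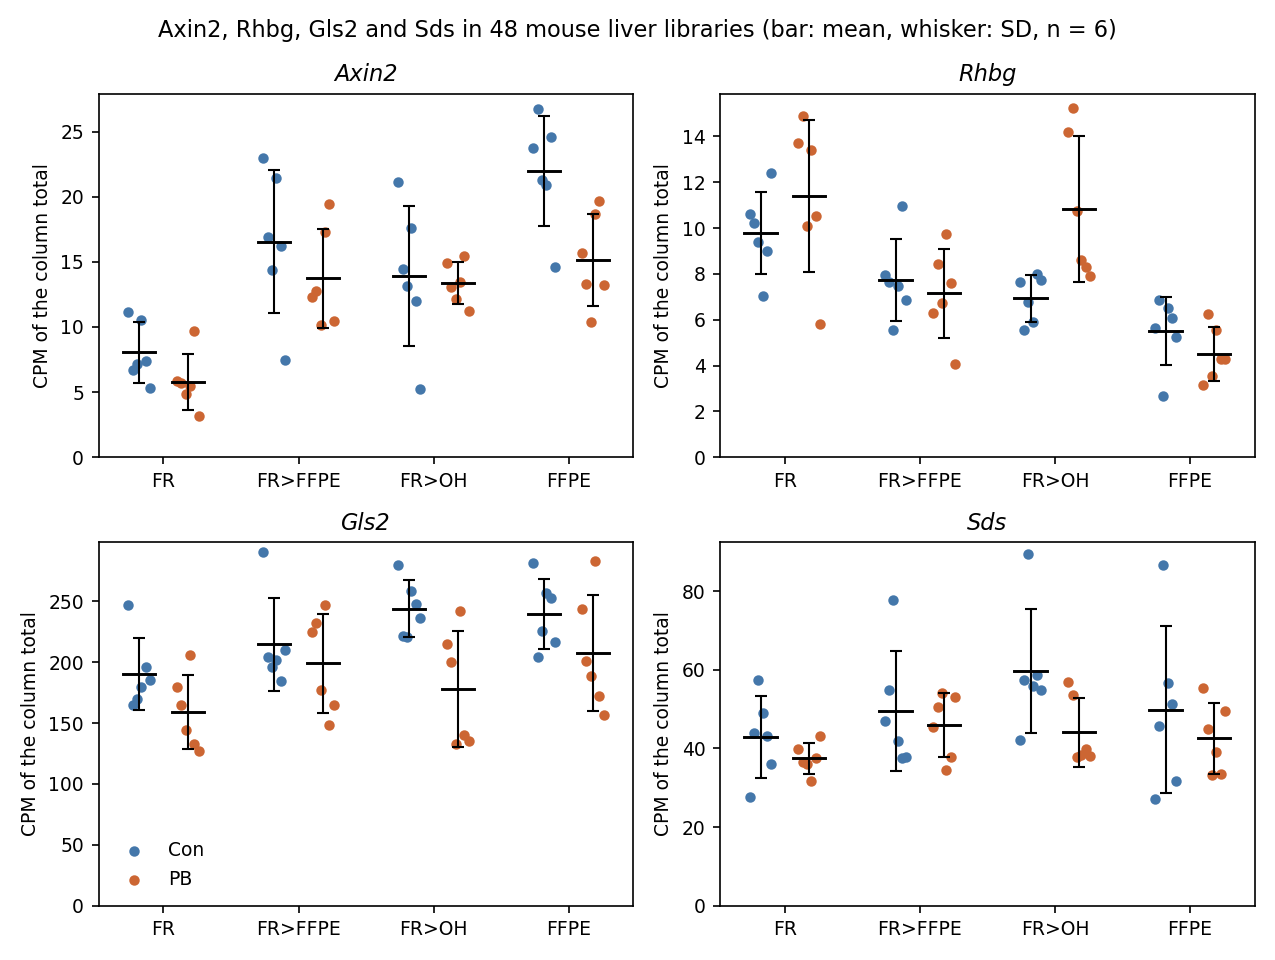
Level of 2 pericentral genes (Axin2, Rhbg) and 2 periportal genes (Gls2, Sds) (y axis, CPM of the column total) in each of 48 libraries, by preparation (x axis) and treatment (color); bars are means and whiskers SD of 6 livers. Axin2 has its lowest means in FR (libraries from 3.19 to 11.2 CPM), Rhbg has its lowest means in FFPE (2.68 to 6.84 CPM), and Gls2 and Sds overlap between preparations.

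Of the 36 Wnt pathway genes, 28 were higher and 3 lower in FFPE than in FR, 31 and 1 in FR>FFPE, and 24 and 3 in FR>OH, with medians of 0.71, 0.62 and 0.49, beside 0.32, 0.34 and 0.18 over all genes. Of all genes 53% were higher and 17.3% lower in FFPE, 56.5% and 8.93% in FR>FFPE, and 41.7% and 13.3% in FR>OH. Those with the largest rise in FFPE were the secreted inhibitor Sfrp1 (2.33), the coactivator Bcl9l (1.90) and the transcription factor Tcf7l1 (1.68). Wls, which carries Wnt ligands to the cell surface, was lower in all 3 (-0.46 in FFPE, -0.42 in FR>FFPE, -0.65 in FR>OH), and the ligand Wnt2, made by liver endothelial cells, was lower in FR>OH (-0.80), where the endothelial markers were lower as well. Beta-catenin itself, Ctnnb1, was lower in FFPE (-0.27) and FR>OH (-0.10).

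Of the 18 further pericentral genes, 7 were higher and 4 lower in FFPE, 8 and 2 in FR>FFPE, and 7 and 2 in FR>OH, to be read against the same shares of all genes. The Wnt target Tbx3 (1.13, 1.04 and 0.89) and the Wnt receptor ligase Znrf3 (1.04, 0.81 and 0.71) were among the highest in each, and the secreted Lect2 (-1.02, -0.54 and -0.64) was the lowest in each. Of the 20 further periportal genes, 5 were higher and 9 lower in FFPE, 4 and 7 in FR>FFPE, and 4 and 7 in FR>OH, against those shares again. Ftcd, of histidine breakdown, was the highest in each (0.71, 0.68 and 0.64), and the urea cycle gene Otc was the lowest in FFPE (-1.02) and FR>OH (-0.56).

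A ratio of 2 genes within a library does not depend on its scaling. The 3 pairs were set against each other, each pericentral to periportal, in 21 comparisons with exact two-sided permutation tests and Benjamini-Hochberg adjustment over the 21. The log2 ratio of Glul to Gls2 in FR>OH was 1.36 ± 0.12 in Con and 1.97 ± 0.43 in PB (SD, n = 6), higher with PB by 0.61 (exact permutation p = 0.015, adjusted 0.032). In FR, FR>FFPE and FFPE the PB difference was -0.21, -0.39 and -0.24 (adjusted p = 0.26, 0.18 and 0.24, exact permutation tests).

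The log2 ratio of Cyp2e1 to Cyp2f2 in FR>OH was 1.80 ± 0.31 in Con and 2.66 ± 0.41 in PB, higher by 0.87 (exact permutation p = 0.0065, adjusted 0.023). In the other 3 preparations it was higher by 0.24 to 0.39 (adjusted p from 0.057 to 0.26, exact permutation tests). The ratio of Oat to Hal was lower with PB in FR by 0.47, with a mean of 0.61 ± 0.27 in Con and 0.14 ± 0.26 in PB (exact permutation p = 0.015, adjusted 0.032).

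That ratio was also lower with PB in FR>FFPE (difference -0.75, adjusted p = 0.033) and in FFPE (-0.92, adjusted p = 0.0091, where p = 0.0022 is the smallest that an exact permutation of 6 against 6 can give), and all 6 FFPE PB livers lay below all 6 Con livers. In FR>OH it differed by 0.16 (adjusted p = 0.54, exact permutation test). Across preparations, with the 12 mice paired, Glul to Gls2 was below FR in FR>FFPE by 0.35 (11 of 12 mice), in FR>OH by 0.50 (10 of 12) and in FFPE by 0.49 (12 of 12). Oat to Hal was below FR by 0.47, 0.61 and 0.60 (10, 11 and 11 of 12 mice). All 6 passed (adjusted p from 0.0091 to 0.027, exact sign-flip permutation), while Cyp2e1 to Cyp2f2 differed by -0.14 to 0.05 and did not pass. These differences pool Con and PB, which went apart in FR>OH. Mean Glul to Gls2 went from 2.27 in FR to 1.36 in FR>OH in Con, but from 2.06 to 1.97 in PB. Mean Cyp2e1 to Cyp2f2 went from 2.18 to 1.80 in Con and from 2.57 to 2.66 in PB. For Oat to Hal it was 0.61 to -0.31 in Con and 0.14 to -0.15 in PB. Con and PB were not tested apart here.

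After the 8 group means were removed, members of a zone varied together over the 48 libraries to different degrees. Pearson's r of log2 CPM residuals was 0.80 for Oat and Cyp2e1, 0.70 for Oat and Slc1a2, 0.65 for Cyp2e1 and Slc1a2 and 0.59 for Glul and Rhbg, but 0.14 for Glul and Cyp2e1. On the periportal side it was 0.73 for Hal and Gls2, 0.69 for Cyp2f2 and Hal and 0.64 for Cyp2f2 and Gls2. Sds stood apart, with -0.13 to 0.07 against the other periportal members and -0.63 and -0.62 against Oat and Cyp2e1. Libraries of 1 mouse share that animal, so the 48 points are not independent, and these values are descriptions with no test.

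The genes most like each member in this measure, among 7953 genes of at least 10 CPM on average, were Gspt1 (r 0.61) and Camk2d (0.61) for Glul, Lhpp (0.82) and Pon1 (0.81) for Oat, Oat (0.80) and Lhpp (0.79) for Cyp2e1, and Oat (0.70) and Susd4 (0.68) for Slc1a2. They were Inhbe (0.84) and Tob2 (0.82) for Axin2, and Prodh (0.72) and Rhobtb3 (0.65) for Rhbg. For the periportal members they were Ces3a (0.89) and Cyp2a12 (0.85) for Cyp2f2, Mup21 (0.79) and Srd5a1 (0.77) for Hal, Csrnp1 (0.75) for Sds, and Etnppl (0.86) and Marc1 (0.86) for Gls2. Etnppl and Prodh were themselves on the lists of further periportal and pericentral genes.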

How the data were processed

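Total RNA of 48 mouse liver libraries was sequenced after rRNA depletion in stranded libraries. The authors trimmed reads, aligned them with STAR 2.5.3a to GRCm38/mm10 and deposited estimated counts per RefSeq gene, made by expectation maximization in Partek Flow. Of the deposited values 95.7% lay within 0.01 of a whole number, and they were rounded here. The deposited log2 CPM table, scaled by total reads, served as an alternative. Reads on genes were 46.6% to 51.8% of total reads in FR, 31.7% to 40.5% in FR>FFPE, 34.1% to 44.9% in FR>OH and 21.4% to 27.5% in FFPE, and depth limits precision.

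Genes with a geometric mean above 1 count (offset 1e-04) were fitted with edgeR 4.0.16 in R 4.3.3 as 8 group means, with the column total as library size and Benjamini-Hochberg adjustment over 13370 genes. A call took an adjusted p under 0.05 and 2-fold. Alternatives were TMM, total reads, a total without the 21 genes over 1% of a library, other filters, DESeq2 1.42.0, limma 3.58.1, 1 lane label and the mouse as a block. Libraries of 1 mouse carry its number in their titles: residuals correlated above 0.1 in 72 of 72 same-mouse pairs (median r 0.70) against 73 of 360 others (median -0.13). The ratio tests added 0.5 counts to each gene and used scipy 1.17.1. Rat liver counts of a targeted panel (deposited as whole-number counts) were fitted with TMM. The code was tested on simulated data.

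The members and gene lists were chosen with earlier results of these data known. Named genes were the members, up to 3 genes per direction and list with the largest change among those passing in a comparison, and the 2 genes most like each member, of which 1 is not reported here. Cyp2b10, Cyp2c50 and Cyp3a11 were named besides as genes known to respond to PB. Marker lists covered hepatocytes, endothelial, Kupffer, stellate, bile duct, red blood and smooth muscle cells. Nothing in the labels names separate batches of animals. The fit of group means had no mouse term and treated libraries of the same mouse as independent, although their residuals correlated. Its p-values therefore do not measure the spread between independent livers alone. With the mouse as a block, and in the paired ratio tests across preparations, p-values measure the spread of differences within livers. Ratio tests of PB against Con within a preparation measure the spread between livers.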

Additional observations from a re-analysis of the deposited data

Results flagged for a closer look

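The PB difference of 4 pericentral members was not the same in FR>OH as in FR. With the mouse as a block, the PB difference in FR>OH minus that in FR was 0.60 for Glul, 0.57 for Oat, 0.40 for Cyp2e1 and 0.59 for Slc1a2 on the log2 scale (edgeR's quasi-likelihood test, adjusted p from 0.0072 to 0.027), and without the block none of them passed.

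Single livers stood far from the other 5 of their group in 7 of 80 groups by Dixon's criterion, where chance marks about 1 in 20. Of these 7, 6 were the Con mouse 21C: Cyp2e1 at 3718 CPM in FR>OH (next highest 2472) and 4771 CPM in FR (next 3565), Oat at 387 CPM in FR>OH (next 222), Gls2 at 291 CPM in FR>FFPE (next 209.8) and 247 CPM in FR (next 196), and Hal at 317 CPM in FR>FFPE (next 224). The other was Sds at 89.4 CPM in FR>OH of Con mouse 8A (next 58.7). Mouse 21C had the lowest Sds of the Con group in FR (27.7 CPM) and in FR>OH (42.1 CPM). Its FR>FFPE library had a column total of 5534973, beside 8812962 to 10681783 in the other FR>FFPE Con libraries, with 31.7% of reads on genes. Without that library 6 members in place of 7 passed in FR>FFPE against FR. In Con alone, 0 in place of 1 was called. These values come with no test of a cause.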

How the results depend on the processing

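Numbers of members that passed depended on the call rule. Without the 2-fold criterion they were 2, 2, 3 and 3 for PB in FR, FR>FFPE, FR>OH and FFPE, and 8, 7, 6 and 1 for FFPE, FR>FFPE and FR>OH against FR and FFPE against FR>FFPE. Within 1 lane label, 1 member passed in FR and 1 in FR>OH, and with only the 12 libraries of FR>FFPE 1 passed. No lane label of FR>FFPE holds both treatments, so FR>FFPE has no value within 1 lane label. For PB in FFPE, 2 members passed with no filter or with total reads. With lane label as a term, 4 members passed in FFPE against FR. In Con and in PB tested alone, 5 members passed in both for FFPE (1 at 2-fold), 1 for FR>FFPE and 1 for FR>OH (0 at 2-fold).

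Scaling moved the preparation results most. Called members in FFPE against FR were 6 with total reads or limma on the deposited log2 CPM, all lower and without Axin2, against 1 higher and 1 lower with column totals, and in FFPE against FR>FFPE 1 with either (9 at an adjusted p alone; 7 with the replicate block by mouse). In FR>FFPE against FR they were 0 with TMM, total reads, limma or DESeq2, and in FR>OH 0 with TMM or DESeq2. The FR>OH interaction had 4 members past the threshold with the block, from 0 without mouse 20B and 2 without mouse 90C to 4. With the block, members past the threshold rose from 1 to 4 for FR>OH against FR in PB alone, and from 1 to 7 in Con and 2 to 8 in PB for FR>FFPE against FR. In the other comparisons it moved no count of calls by over 1.5 times.

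Log2 differences changed sign as follows. Against FR with total reads and with limma, Slc1a2 was -0.55 and -0.55 in FFPE, -0.088 and -0.10 in FR>FFPE, and -0.29 and -0.30 in FR>OH; Gls2 was -0.59 and -0.60, -0.14 and -0.14, and -0.076 and -0.078; Sds was -0.77 and -0.80 in FFPE and -0.14 and -0.15 in FR>FFPE. With TMM and with DESeq2, Sds was -0.084 and -0.088 in FFPE, and in FR>FFPE Sds was -0.053 and -0.056, Slc1a2 -0.020 and -0.024 and Gls2 -0.066 and -0.070, while Slc1a2 was -0.14 and -0.14 in FR>OH. With lane label as a term Gls2 in FFPE was -0.11. For PB, Cyp2f2 in FR was 0.20 within 1 lane label. The PB difference of Cyp2f2 in FFPE was -0.0097 with TMM, -0.0044 without abundant genes and -0.0096 with DESeq2. In FR>OH with total reads, limma and 1 lane label, the PB difference of Oat was 0.089, 0.14 and 0.086 and that of Axin2 0.034, 0.15 and 0.19. That of Slc1a2 was 0.026 within 1 lane label. The FR>OH interaction of Hal was 0.012 with total reads and 0.0052 with limma.

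In rat liver with column totals in place of TMM, FFPE against FR gave Cyp2e1 0.50, Glul 1.04, Sds 0.55 and Slc1a2 0.050. Only Glul was called there, as higher, and with DESeq2 only Slc1a2 was called, as lower (-1.45). With column totals FR>FFPE against FR gave Glul 0.43 (0 called), and with TMM 2 members passed the adjusted p alone. Of the other values of single genes, 756 kept direction and side of the threshold, 35 newly passed and 39 no longer passed. The causes were not tested. Depth limits Axin2 and Rhbg most.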

Other observations

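Rat liver offered a second view of the members by another assay. It came from male F344 rats given vehicle, in 3 groups of 6 libraries (FR, FR>FFPE and FFPE, formalin for 18 to 24 h), measured with a targeted panel. Of the 10 members 4 had counts there (Glul, Cyp2e1, Slc1a2 and Sds), Oat, Axin2, Rhbg, Hal and Gls2 were at 0 in every library, and Cyp2f2 had no row. Cyp2e1 had 1242, 1932 and 2628 CPM in FR (lowest, median and highest), 2577, 3039 and 4572 in FR>FFPE, and 1744, 2577 and 3449 in FFPE. Glul had 154, 203 and 264 CPM in FR, 129, 262 and 464 in FR>FFPE and 351, 406 and 538 in FFPE. On CPM of the column total Glul in FFPE thus lay above every FR library.

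With TMM scaling the fitted differences in FFPE were lower for Cyp2e1 (log2 -1.10, SE 0.24), Sds (-1.06, SE 0.34) and Slc1a2 (-1.58, SE 0.22), all called, against 64.3% of the 2281 rows tested, and Glul was -0.59 (edgeR's quasi-likelihood test, adjusted p = 0.022). In FR>FFPE Sds was called (-1.19, SE 0.29), against 49.9% of rows, and Slc1a2 was -0.71 (adjusted p = 0.0021). All 4 signs in FFPE turned with column totals, so no direction of a member against FR can be given for FFPE rat liver. Sds rested on as few as 5 counts in an FFPE library.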
